A study of Homo sapiens with 22 samples.

Results

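The 945 genomic regions described here had called peaks of wild-type estrogen receptor alpha (ESR1) only after estradiol, and of the D538G form of the receptor already without it. They were selected on measured peaks: a region had a peak in 4 of 4 lists of estradiol-treated wild-type libraries, in 0 of 4 lists of solvent-treated wild-type libraries and in at least 4 of 6 lists of solvent-treated D538G libraries. Merging the peaks of all 20 libraries on chromosomes 1 to 22 and X gave 93599 regions, of which 2731 were gained with estradiol in wild type (4 of 4 against 0 of 4 lists). Of those 2731 estradiol-gained regions, 945 met the D538G requirement, 611 had a peak in 2 or 3 of the 6 D538G solvent lists and 1175 in 0 or 1. Peak presence in the wild-type and the D538G solvent lists is therefore what chose the regions and is given as a description. The 4 solvent-treated wild-type lists covered 42, 24414, 39 and 983 regions. A missing peak in a short list is weak evidence that the receptor was absent. The 6 lists of estradiol-treated D538G libraries, the positions of the peak summits and the spacing of the regions were not used by the choice.

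The study was a chromatin immunoprecipitation sequencing experiment in Ishikawa cells, an established line from an endometrial adenocarcinoma, with clones whose ESR1 carried a FLAG tag and was wild type or held the D538G substitution. All cells were kept for at least 5 days in medium without phenol red and with hormone-stripped serum, then given 10 nM estradiol (E2) or the solvent DMSO at 0.1% for 1 h, and chromatin was precipitated with an anti-FLAG antibody. The 4 groups were wild type with E2 and wild type with DMSO (2 clones with 2 replicates each), and D538G with E2 and D538G with DMSO (3 clones with 2 replicates each). Each line was a clone, so a difference between genotypes could not be separated from a difference between these clones, and the labels do not say how the 2 replicates of a clone relate.

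ESR1 is a ligand-activated transcription factor of the nuclear receptor family. In the absence of hormone most of the receptor is not stably held on chromatin. Estradiol changes the shape of its ligand-binding domain, which exposes a surface for coactivators and is followed by binding at many sites, often distal enhancers. D538G lies in that ligand-binding domain and is known from hormone-resistant breast cancer and from endometrial cancer as a substitution that favours the active shape without ligand.

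List length differed widely within groups. A wild-type E2 list covered 5405 to 33060 regions, a wild-type DMSO list 39 to 24414, a D538G E2 list 1876 to 43949 and a D538G DMSO list 1516 to 48576. Read depth is not given in the sources used here, so fewer reads, weaker enrichment and fewer bound sites cannot be told apart in a short list. The D538G clone 2 replicate 1 list labelled E2 carries peak names that say Ctl, as do the names of 5 lists labelled DMSO. It held 86.9 and 89.1% of the D538G DMSO replicate 1 lists of clones 1 and 3. The clone 2 replicate 1 list labelled DMSO shared 90.7 and 97.0% of its regions with the E2 replicate 1 lists of clones 1 and 3. With their DMSO replicate 1 lists it shared 76.1 and 80.8%. Lists differ in length, the labels were kept, and the reason was not tested. The region count, the clone comparison, the D538G E2 shares, the strength bands, the percentiles and the summit distance are also given without both clone 2 replicate 1 lists.

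The D538G solvent peaks that admitted the regions came from all 3 clones. Of the 945 regions, 210 had a peak in all 6 D538G DMSO lists, 437 in 5 and 298 in 4. At least 1 list of every clone held a peak in 916 of them. In clone 1 the DMSO lists held 892 regions in replicate 1 and 937 in replicate 2. In clone 2 the numbers were 874 and 513, and in clone 3 they were 924 and 497. The replicate 2 lists of clones 2 and 3 thus accounted for most of the gaps: 432 and 448 regions lacked a peak there, and 795 had a peak in all 4 of the other lists. List length did not order these numbers, since the clone 2 replicate 2 list covered 48576 regions in all and the clone 2 replicate 1 list 3856.

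To see how far the choice carried over to libraries that took no part in it, the rule was applied to the lists of some libraries and read in the others. With the D538G requirement set on 2 clones (at least 3 of their 4 DMSO lists), 718 estradiol-gained regions were chosen without clone 1, 990 without clone 2 and 931 without clone 3. The clone left out had a DMSO peak in at least 1 of its 2 lists in 97.9% of them for clone 1, 90.9% for clone 2 and 94.1% for clone 3. Estradiol-gained regions without a DMSO peak in the other 2 clones had one in the clone left out in 27.1%, 16.1% and 5.00% of cases, and all regions in 51.6, 53.4 and 9.97%. Single lists divided these values. The clone 1 lists held 90.5 and 96.8% of the 718 regions in replicates 1 and 2, and 2.36 and 26.7% of those not held by the other clones, against 12.7 and 51.2% of all regions. The clone 2 lists held 85.7 and 49.2% of the 990 regions, 15.9 and 0.340% of those not held elsewhere, and 4.12 and 51.9% of all regions. The clone 3 lists held 92.9 and 47.0% of the 931 regions, 3.33 and 1.79% of those not held elsewhere, and 9.80 and 1.62% of all regions. The selected regions were therefore held above the share of all regions in 5 of the 6 lists, and in clone 2 replicate 2 slightly below it. The share of all regions follows the length of the list read, and the selected regions also had a peak in every wild-type E2 list. This comparison therefore does not show by itself that the D538G choice carried over. Estradiol-gained regions not held by the other clones have the same wild-type pattern, and the selected regions were above them in every list. The choice was also made without both clone 2 replicate 1 lists, with at most 1 list of the other clones lacking. The clone left out then had a DMSO peak in 98.0% of 819 regions for clone 1 and 89.3% of 1094 for clone 3. For clone 2 it was the 49.2% of its remaining list. For regions in no list of the other clones the share was 29.4, 0.340 and 11.1% for clones 1, 2 and 3, and for all regions 51.6, 51.9 and 9.97%. In clone 2 the selected regions thus lay slightly below the share of all regions.

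Across replicate numbers the carry-over was partial. The rule set on replicate 1 lists only (both wild-type E2 lists, neither wild-type DMSO list and at least 2 of 3 D538G DMSO lists) chose 2908 regions, and 82.6% of them had a peak in at least 2 of the 3 D538G DMSO replicate 2 lists, against 7.90% of the 1418 regions with the same wild-type pattern and 0 of 3 D538G DMSO lists, and 25.6% of all regions. Set on replicate 2 lists only it chose 2931 regions, of which 38.9% had a peak in at least 2 of the 3 D538G DMSO replicate 1 lists, against 3.70% of 2515 regions and 7.88% of all regions. The complete pattern, wild type included, recurred in 777 regions, which were 26.7% of the first choice and 26.5% of the second. Many of the first choice had a wild-type solvent peak in the other replicate. Of the 2908 regions chosen in replicate 1, where the wild-type DMSO lists covered 42 and 39 regions, 54.7% had a peak in the wild-type clone 1 replicate 2 DMSO list, which covered 24414 regions, and 25.8% in that of clone 2, which covered 983.

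That single wild-type list also set the number of regions. With a peak in 4 of 4 wild-type E2 and at least 4 of 6 D538G DMSO lists there were 2620 regions, of which 945 (36.1%) had no wild-type DMSO peak, 936 had one in 1 list, 695 in 2, 28 in 3 and 16 in 4. For 883 of the 936, the only wild-type DMSO peak was in clone 1 replicate 2. Without that list the rule gave 1829 regions in place of 945. In the D538G E2 lists, 95.9% of those 883 had a peak in at least 4 of 6, close to the share of the 945 given next, but single lists divided them. The clone 2 replicate 2 list held 64.4% of the 945 and 23.8% of the 883, and the clone 3 replicate 2 list held 78.2% and 99.9%. The part that enrichment or depth of the wild-type list plays in this was not tested.

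In the estradiol-treated D538G libraries, the regions were occupied almost throughout. A peak was present in at least 4 of the 6 lists in 931 of the 945 regions (98.5%, 95% exact Clopper-Pearson interval 97.5 to 99.2%, counting error only), and in all 6 lists in 440 (46.6%). That interval treats regions read in the same 6 libraries as independent and leaves out the spread between libraries. The share of the 945 with a peak in a single D538G E2 list was 88.7 ± 14.4% (SD, n = 6). None had fewer than 3 lists. By library, the clone 1 lists held 938 and 872 of the 945 regions in replicates 1 and 2, the clone 2 lists 924 and 609, and the clone 3 lists 945 and 739. The lists with the fewest were therefore the shortest of the group, clone 2 replicate 2 with 1876 regions in all, and the longest, clone 3 replicate 2 with 43949. The estradiol-gained regions with 0 or 1 D538G DMSO peaks stood apart in the same libraries: 30.3% of the 1175 had a peak in at least 4 D538G E2 lists, 0 had one in all 6, and 51 had none. For the 611 regions between these sets the share was 70.5%, and over all 93599 regions it was 7.15%.

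**Figure D1:**
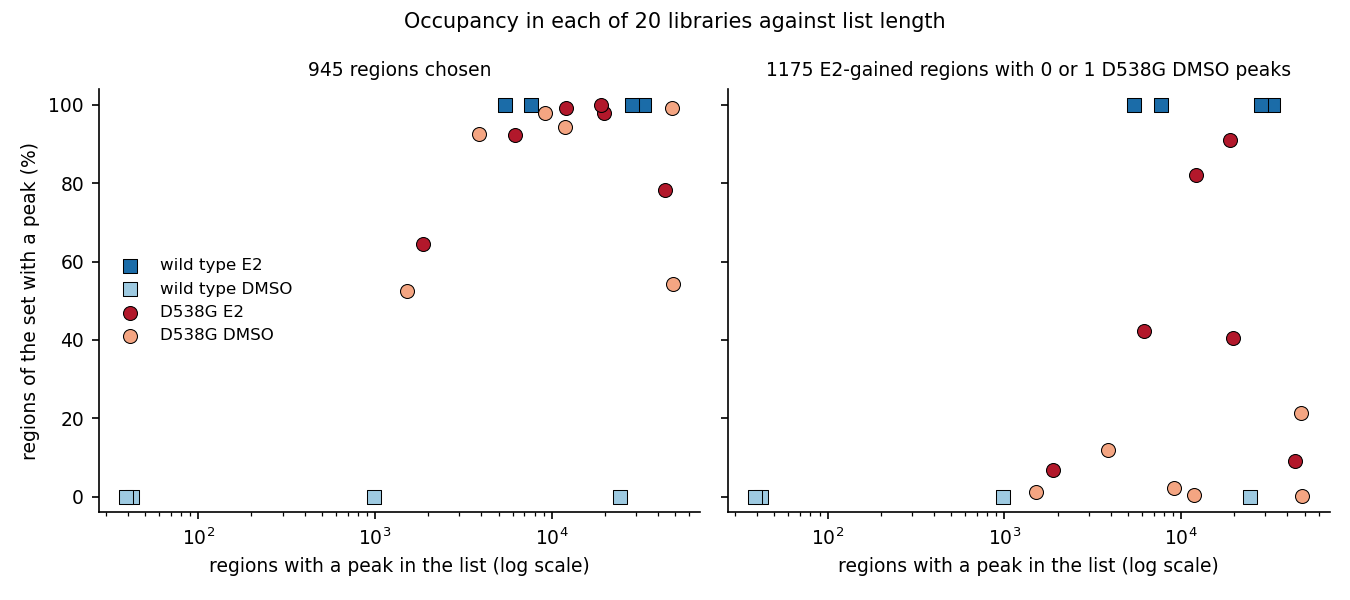
Share of the 945 regions (left) and of the 1175 estradiol-gained regions with a peak in 0 or 1 D538G DMSO lists (right) that had a peak in each library, against the number of regions in that library's list on a log axis. Squares are wild type and circles D538G, and the wild-type and D538G DMSO values were used to choose the sets. On the left the D538G E2 lists lie between 64.4 and 100%, on the right between 6.81 and 91.1%.

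The share rose in steps with the number of D538G DMSO lists. Estradiol-gained regions with 0 D538G DMSO lists had a peak in at least 4 D538G E2 lists in 22.4% of cases, and the shares were 43.8, 60.5 and 82.8% with 1, 2 and 3 lists. Within the 945 it was 96.0% with 4 lists, 99.5% with 5 and 100% with 6. At the threshold the change was gradual: the 298 regions just inside it had a peak in 4.88 D538G E2 lists on average and the 274 just outside, with 3 DMSO lists, in 4.25. The peaks of both came from the same clones in both treatments, so a clone's own chromatin is shared between the measures set side by side.

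**Figure D2:**
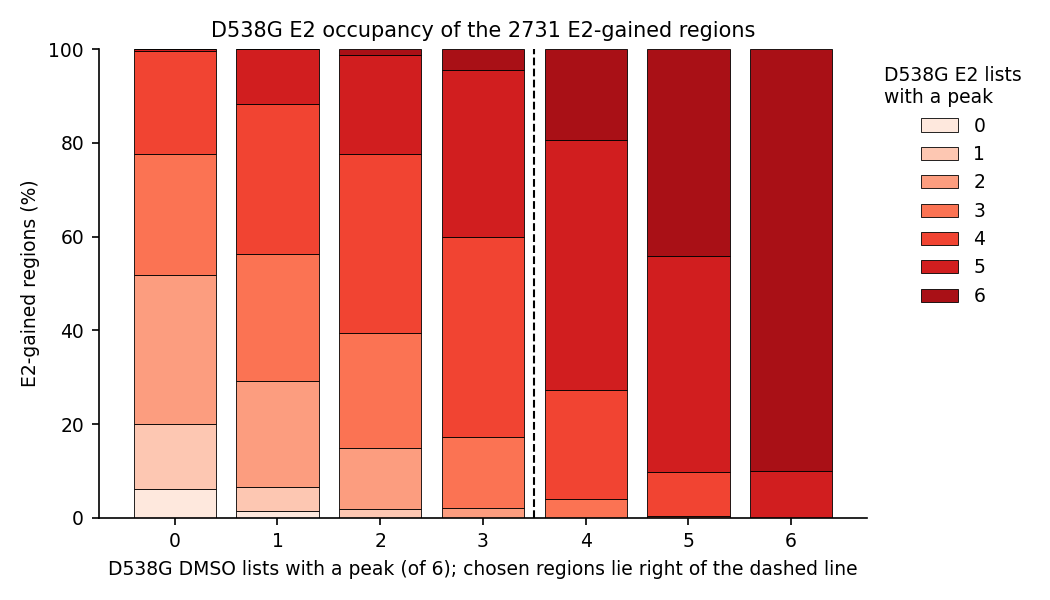
The 2731 estradiol-gained regions by the number of D538G DMSO lists with a peak (horizontal) and the share with a peak in 0 to 6 D538G E2 lists (shades, in percent). The darkest shade, all 6 E2 lists, covers 189 of the 210 regions with 6 DMSO lists and 0 of the 741 regions with none.

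In D538G cells, peaks with and without estradiol coincided in most of the 945 regions in replicate 1 and less often in replicate 2 of clones 2 and 3. In clone 1 replicate 1, 888 regions had a peak in both treatments, 50 with E2 only and 4 with DMSO only. In clone 3 replicate 1 the numbers were 924, 21 and 0. In clone 2 replicate 1, whose E2 list has the Ctl peak names, they were 854, 70 and 20. Replicate 2 differed: clone 1 had 864 regions with both, 8 with E2 only and 73 with DMSO only, clone 2 had 315, 294 and 198, and clone 3 had 342, 397 and 155. Over all lists, 410 regions had a peak in more E2 than DMSO lists, 459 in as many and 76 in fewer. The DMSO side had to reach 4 lists, so this balance is a description.

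The replicate number moved with these values. Every one of the 945 regions had a peak in at least 2 of the 3 D538G E2 replicate 1 lists and 917 in all 3, whereas in replicate 2 the numbers were 830 and 448. When the lists of 1 replicate number were also merged on their own, which changes the regions' borders and gave slightly more regions than the 2908 and 2931 above, 99.9% of 2962 regions from replicate 1 and 34.1% of 2939 regions from replicate 2 had a peak in at least 2 of the 3 D538G E2 lists. These 2 shares are of regions chosen otherwise than the 945 and read at another threshold than 4 of 6. The share of all regions was not taken beside them. Of the 945 themselves, 100% and 87.8% had a peak in at least 2 of the 3 D538G E2 lists of replicates 1 and 2. In regions chosen and read within 1 replicate number, the share was thus high in replicate 1 and much lower in replicate 2. Without a share of all regions, neither value is read as recurrence or as its absence. The D538G E2 lists of clones 1, 2 and 3 covered 12082, 19791 and 18951 regions in replicate 1, and 6203, 1876 and 43949 in replicate 2. Without both clone 2 replicate 1 lists, 714 regions were left and 92.3% had a peak in at least 4 of the 5 D538G E2 lists, against 49.7% of 719 regions with 2 or 3 of 5 DMSO lists, 9.86% of 1298 with 0 or 1, and 4.13% of all regions. By number of DMSO lists from 0 to 5 the shares were then 6.25, 17.5, 35.6, 65.3, 89.0 and 100%. What sets the replicate 2 lists apart was not tested.

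Tests of single regions had little reach with 4 to 6 lists a group. Between D538G E2 and wild-type E2, Fisher's exact test (two-sided) of peak presence in 35726 regions gave 434 with an unadjusted p under 0.05 (1.21%), 116 more often occupied in D538G and 318 less often, and 0 (0%) after Benjamini-Hochberg adjustment. Of the 945 regions 0 were called, and the smallest Fisher's exact p among them was 0.2, in the 14 regions with 3 D538G E2 lists. Between D538G E2 and D538G DMSO, 9 of 44916 regions (0.02%) passed unadjusted, all with more E2 lists, and 0 (0%) after adjustment. None of the 945 was among them, and with E2 and DMSO lists paired by clone and replicate the 9 became 0. In that paired form a region can pass only if all 6 pairs differ in the same direction, so the change to 0 is not read as an effect of pairing. The rule had fixed the wild-type side at 4 of 4 and the DMSO side at 4 or more, which left these tests almost no room in the 945 regions, so nothing is read from the counts.

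The regions were among the stronger estradiol-gained regions of wild type, a property that the choice did not use directly. Peaks were ranked by the authors' signal value within each list, so that 100 is the strongest peak of that list. The mean percentile of the 945 regions in the 4 wild-type E2 lists was 71.5, 73.0, 63.5 and 75.6 (70.9 ± 5.21, SD, n = 4), and that of the 1175 with 0 or 1 D538G DMSO lists was 52.1, 43.9, 43.4 and 58.0 (49.4 ± 6.996). The 945 were higher than the 1175 in every one of the 4 lists. For the 611 regions between these sets the values were 60.0, 58.0, 49.9 and 64.6. The 883 regions kept out only by the wild-type clone 1 replicate 2 DMSO list had 62.1, 89.0, 49.5 and 83.0. They lay below the 945 in the replicate 1 lists and above them in the replicate 2 lists, so high strength was not particular to the 945. In the 6 D538G E2 lists the mean percentile was 79.9 ± 10.2 (SD, n = 6) for the 945 and 50.5 ± 11.98 for the 1175, again higher in all 6. The 1175 had a peak in 80 to 1070 regions of a D538G E2 list, so some of their means rest on few peaks. Without both clone 2 replicate 1 lists the means were 82.2 ± 10.7 (SD, n = 5) for the 714 regions and 53.4 ± 12.2 for the 1298. The smallest gap was in clone 3 replicate 2, with 85.9 against 66.4, and the largest in clone 1 replicate 2, with 75.8 against 41.3. Peaks of the 945 were also wider within a list: in D538G E2 clone 1 replicate 1 the median was 670 bp against 437 bp.

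**Figure D3:**
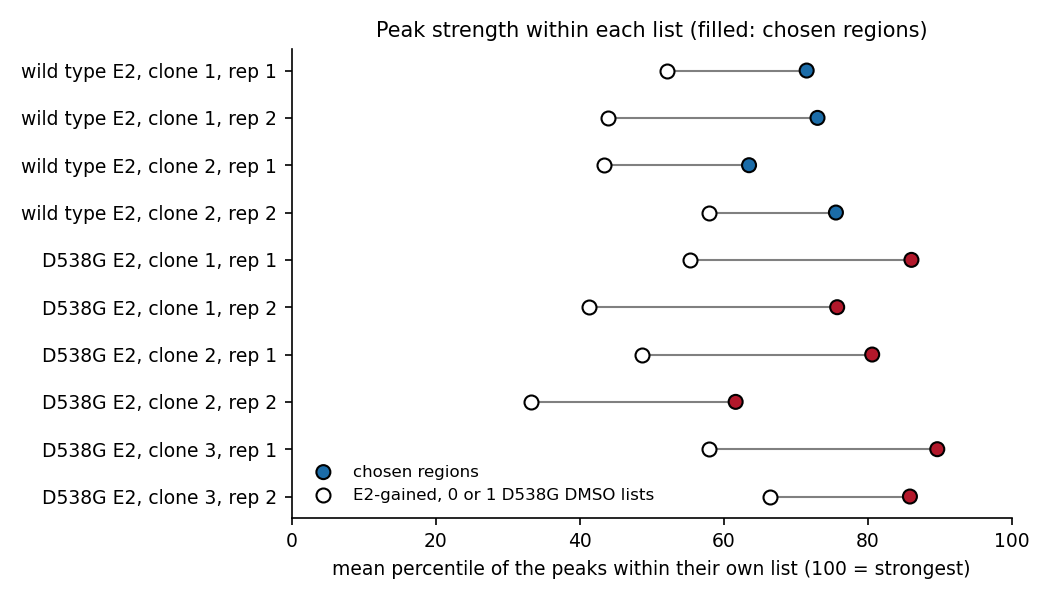
Mean percentile of the peaks within their own list (100 is the strongest peak) for the 945 regions (filled) and for the 1175 estradiol-gained regions with a peak in 0 or 1 D538G DMSO lists (open), in each of the 10 E2 libraries. Filled points lie right of open points in all 10, and positions should not be compared between lists of different length.

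Strength in estradiol-treated wild type and D538G occupancy without ligand went together. When the 2731 estradiol-gained regions were divided into 5 equal bands by mean percentile in the wild-type E2 lists, the 945 made up 12.6% of the weakest band, then 19.8, 28.0 and 43.2%, and 69.4% of the strongest. Among the 945, the share with a peak in at least 4 D538G E2 lists lay between 96.7 and 99.2% in every band. Among the 1175 it went from 20.5% in the weakest band to 54.2% in the strongest. In each band the regions that D538G held in solvent had the higher D538G E2 occupancy. Without both clone 2 replicate 1 lists (at least 4 of 5 lists) the share lay between 83.3 and 97.8% in the bands for the chosen regions and between 3.90 and 23.8% for those with 0 or 1 DMSO lists.

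**Figure D4:**
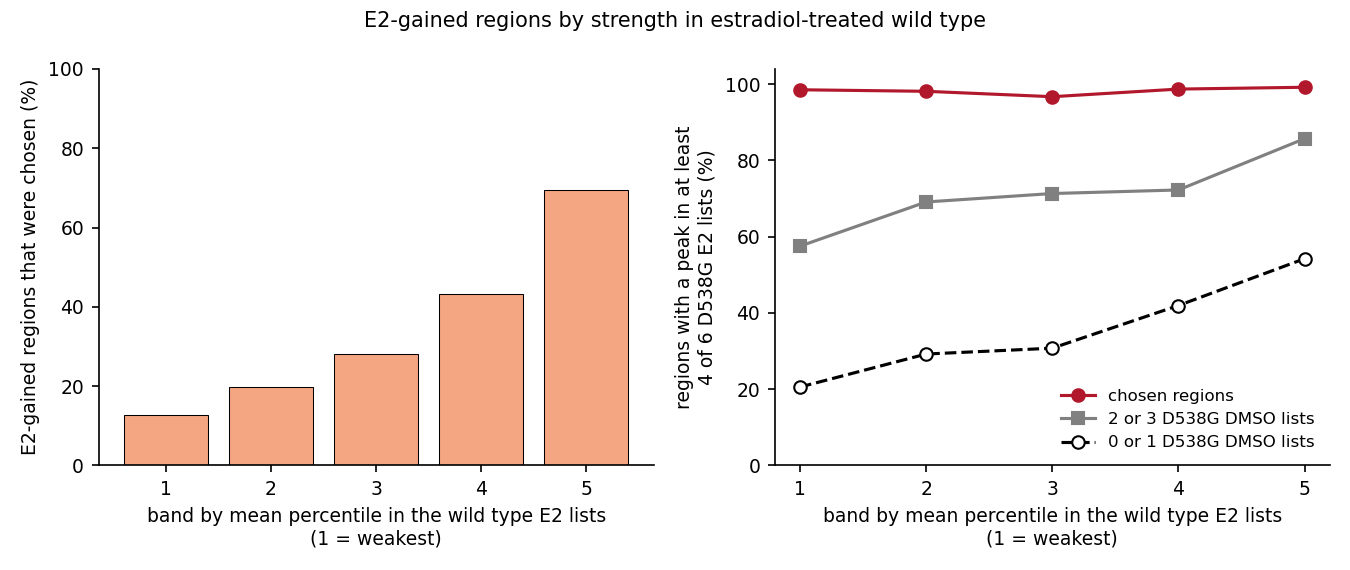
The 2731 estradiol-gained regions in 5 equal bands by mean percentile in the wild-type E2 lists, from weakest (1) to strongest (5). Left, the share that belonged to the 945 regions rises from 12.6 to 69.4%; right, the share with a peak in at least 4 of 6 D538G E2 lists stays at or above 96.7% for the 945 (filled circles) and rises from 20.5 to 54.2% for those with 0 or 1 D538G DMSO lists (open circles), with the 611 others (squares) between.

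Within a region, the summits of the mutant receptor without ligand lay close to those of the liganded wild-type receptor. This closeness was not particular to the 945 regions, and merging overlapping peaks into regions favours near summits by construction. For each pair of lists the distance between the summits of the strongest peaks was taken in every region that both held. The median distance was 27.5 bp between wild-type E2 and D538G E2 lists (24 pairs of lists, 15 to 40 bp) and 33 bp between wild-type E2 and D538G DMSO lists (24 pairs, 17 to 45 bp). Between wild-type E2 lists themselves it was 29.5 bp (6 pairs, 14 to 33 bp). Wild-type lists of the same replicate number lay closer, at 14 bp in replicate 1 and 16 bp in replicate 2, than lists of different numbers, at 29 to 33 bp. Within a replicate number, the distance from wild-type E2 to D538G E2 was 15 to 33 bp in replicate 1 (median 18 bp over 6 pairs) and 27 to 38 bp in replicate 2 (median 28 bp over 6 pairs), above the wild-type pair in all 12. For D538G DMSO it was 17 to 35 bp and 28 to 38 bp, also above in all 12. In replicate 1, the D538G DMSO list of clone 2 lay at 17 and 19 bp, and those of clones 1 and 3 at 31 to 35 bp. The D538G E2 list of clone 2 lay at 32 and 33 bp, and those of clones 1 and 3 at 15 to 18 bp. Without both clone 2 replicate 1 lists, the distance from wild-type E2 to D538G E2 over all pairs was 26 bp. With the median summit over the lists of each group taken per region, the D538G DMSO summit lay a median of 20.5 bp from the wild-type E2 summit. The median signed offset of the D538G DMSO summit was 1 bp. It lay within 50 bp in 781 regions (82.6%) and beyond 300 bp in 20. In the 611 estradiol-gained regions with 2 or 3 D538G DMSO lists, the median over list pairs from wild-type E2 was 29.75 bp to D538G E2. To D538G DMSO it was 41 bp (24.5 to 67 bp). In the 1175 with 0 or 1 D538G DMSO lists these medians were 32 bp and 40 bp (8 pairs, 20 to 59 bp). The medians of the 945 were thus somewhat shorter, with overlapping ranges.

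**Figure D5:**
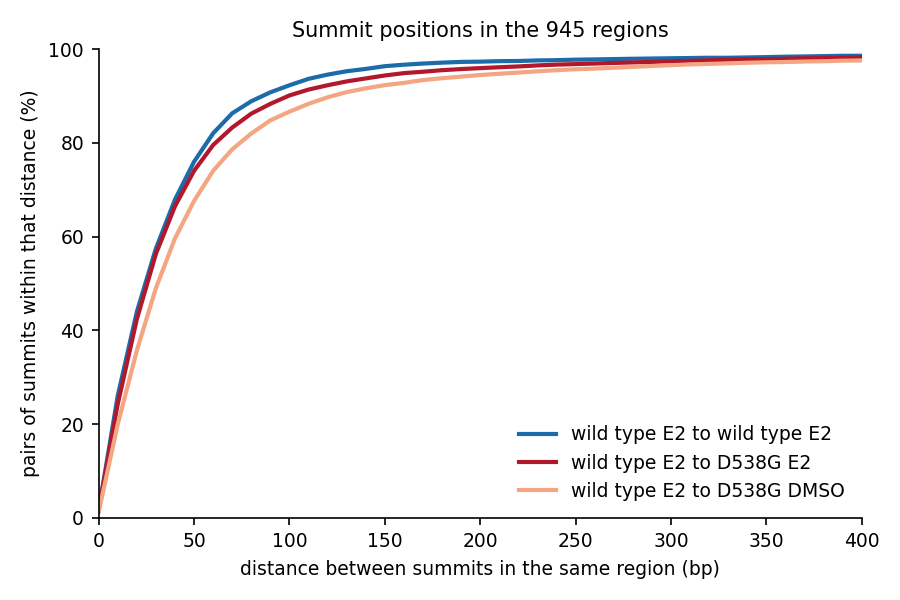
Cumulative share of summit pairs (percent) within a given distance (bp) in the 945 regions, for pairs of wild-type E2 lists (blue), wild-type E2 with D538G E2 lists (red) and wild-type E2 with D538G DMSO lists (orange), with all replicate numbers pooled. The blue and red lines nearly coincide, and the orange line lies below them, with median distances over list pairs of 29.5, 27.5 and 33 bp.

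The 6 regions with the highest mean percentile in the D538G E2 lists, among those with a peak in all 16 lists outside the wild-type DMSO group, show the pattern at single sites (coordinates in hg19, 1-based). The strongest was chr8:22594910-22597584. Its percentile was 89.9 to 96.7 in the 4 wild-type E2 lists, 94.6 to 99.994 in the 6 D538G DMSO lists with a median of 99.9, and 97.4 to 99.9975 in the 6 D538G E2 lists with a median of 99.9. No wild-type DMSO list had a peak there, the mutant peak ranked near the top of every D538G list, and the D538G DMSO and wild-type E2 summits were 14 bp apart. At chr10:11721084-11722565 the wild-type E2 percentiles were 70.5, 86.7, 59.3 and 93.7, lower and more spread than at the other sites. The D538G DMSO percentiles there ran from 96.1 to 99.9 with a median of 97.5. At chr5:72612848-72614000 the wild-type E2 range was 89.2 to 96.2 and the D538G DMSO range 96.9 to 99.8. The others, chr5:55884484-55886048, chr7:101647066-101648685 and chr2:42237487-42238711, had D538G DMSO medians of 98.2, 96.9 and 99.4. Summit offsets in these 6 regions were 3 to 32 bp.

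At the other end, 14 regions had a peak in 3 D538G E2 lists. The 4 with the highest D538G DMSO percentiles were chr19:17226872-17227664, chr9:117314031-117314697, chr10:79985259-79986176 and chr6:81039195-81039793. All 4 lacked a peak in the E2 lists of clone 1 replicate 2 and clone 2 replicate 2, and the remaining gap was in clone 2 replicate 1, clone 3 replicate 2, clone 1 replicate 1 and clone 3 replicate 2. They were not weak in wild type as a group: the median wild-type E2 percentile was 84.7 and 82.0 at the first pair and 52.0 and 57.0 at the second.

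The 3 regions with the highest mean D538G E2 percentile are named on each side of the threshold. Just inside it, chr2:173245059-173246082 had 4 D538G DMSO and 5 D538G E2 lists, with a median D538G E2 percentile of 96.7. The other 2 named inside it, chr9:33221030-33221822 and chr1:233813103-233814059, had 5 and 4 D538G E2 lists with medians of 92.2 and 92.3. Just outside, with 3 D538G DMSO lists, chr13:114516336-114518228 had 3 D538G E2 lists with a median of 90.0. Next came chr3:61125378-61126236 and chr5:59650209-59651498, both with 5 D538G E2 lists and medians of 94.0 and 92.8.

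The regions were 410 to 4128 bp wide with a median of 998 bp, against 592 bp for the 1175. A region found in more lists is wider by construction. The widest, chr3:50573867-50577994, had a peak in all 16 lists and a D538G DMSO median percentile of 97.0, and the summits of all 16 lists lay within 79 bp of each other. In the second widest, chr19:453746-457549, they spread over 1739 bp. More than 1 peak in a region was uncommon: 2.17 to 9.75% of the regions held by a D538G DMSO list and 2.86 to 6.46% of those in a wild-type E2 list had more than 1.

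The regions lay mostly alone. With a gap of at most 50 kb, 787 formed no run with another, 67 runs held 2, 4 held 3 and 3 held 4. The runs of 4 were chr4:148955849-148989468, chr7:101602055-101653818 and chr22:45886176-45904244. The chr7 run includes 1 of the 6 strongest regions, and 2 of its 4 regions had a peak in all 6 D538G DMSO lists. Of the 945, 7.72% had another of the 945 within 10 kb, and 16.0% of the 1175 had another of the 1175. The median distance to the nearest region of the same set was 503 kb for the 945 and 180 kb for the 1175. The sets differ in size, and the part that size plays in this was not tested. Sites that wild type already held in solvent, defined as regions with a peak in at least 2 of 4 wild-type DMSO lists (896 regions), were within 50 kb of 11.4% of the 945, 15.2% of the 611 and 9.79% of the 1175. By chromosome, 17 regions (1.80%) were on chromosome 19, which held 1.62% of the 1175 and 6.79% of all regions. Chromosome 19 held 3.11% of the 611 regions, and the shares of these estradiol-gained sets all lay below that of all regions.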

How the data were processed

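Each of the 20 precipitated libraries had 1 narrowPeak list, called per sample; 2 input libraries were not analysed here. The submitters' processing notes name Bowtie, MACS2 and hg19, without roles. The deposited signal value of each peak is the authors' own, with its reference not given in the sources used here. The deposited −log10 p and −log10 q columns served for a stricter threshold and another ranking, and the deposited score column was not used. Lists cannot be scaled to each other without depth, so presence of a peak, rank within a list and summit position were the measures. Peaks overlapping by at least 1 bp were merged (Python 3.11.15, pandas 2.3.3), and bedtools 2.31.1 gave the same 93599 regions. Regions with a peak in at least 2 compared lists were tested with Fisher's exact test (scipy 1.17.1) and Benjamini-Hochberg adjustment, checked on simulated data.

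Named regions were the 6 strongest in D538G E2 with peaks in all 16 lists, the 4 with fewest D538G E2 lists, the 2 widest and up to 3 on each side of the threshold. Members, sets and rules were chosen with earlier results of these data known, and the readings in libraries left out of the choice were added after the data were seen. D538G E2 and DMSO lists are paired because both come from the same clone; the correlation of their deviations within a pair was 0.05, -0.13, -0.35, 0.23, 0.32 and -0.19. The p-values measure only the spread between these samples. Gene annotation and motifs were not analysed here.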

Additional observations from a re-analysis of the deposited data

How the results depend on the processing

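The number of regions moved with the rule: 210 with 6 of 6 D538G DMSO lists required, 1881 with 1 wild-type DMSO list allowed, 428 with the 5000 strongest peaks per list, and 657 to 1829 when 1 library was left out, the highest without the wild-type clone 1 replicate 2 DMSO list. After seeing the data, further alternatives gave 1828 regions with only the other 3 wild-type DMSO lists required empty, and 2962 and 2939 within replicate numbers 1 and 2. The share with a peak in at least 4 D538G E2 lists (98.5%) was held against its 95% binomial interval. That interval replaced the SD of the shares per library as the tolerance after the main values were seen. It is narrower and does not measure the spread between libraries. The share left the interval at 94.996, 99.7 and 100% with at least 3, at least 5 and 6 D538G DMSO lists. It also left it at 97.3% with 1 wild-type DMSO list allowed and at 93.0% with the 5000 strongest peaks. Without both clone 2 replicate 1 lists (also added after seeing the data) the share was 92.3%. Within replicate numbers 1 and 2, where other regions were chosen and 2 of 3 lists were asked, it was 99.9 and 34.1%. Leaving out 1 library gave 86.8 to 99.7%, where 4 of 5 lists are asked in place of 4 of 6 when it is a D538G E2 list. Summit distance stayed within its SD over list pairs in all 31 alternatives (25 to 31.5 bp with 1 library left out). The mean percentile was 77.1 to 83.6 with 1 library left out, and moved by more than its SD in 1 of 31 alternatives, to 68.9 within replicate number 2. The causes were not tested.

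No region passed adjustment in any of the 14 alternatives of the genotype test and 16 of the treatment test. With so few lists a group these tests had little reach, so this absence is not read as a stable result. Unadjusted, the genotype count of 434 ran from 330 to 945 with 1 library left out, exceeding 1.5 times only without D538G E2 clone 1 replicate 1 (788), clone 2 replicate 2 (852), clone 3 replicate 1 (945) or clone 3 replicate 2 (674), and was 197 with the replicate block, where the groups share only a number. The treatment count of 9 ran from 9 to 481, and exceeded 1.5 times without D538G E2 clone 2 replicate 1 (32), clone 2 replicate 2 (426) or clone 3 replicate 2 (481), or without D538G DMSO clone 1 replicate 1 (14), clone 1 replicate 2 (64), clone 2 replicate 1 (73), clone 3 replicate 1 (14) or clone 3 replicate 2 (18). It was 4 with the 5000 strongest peaks and 0 with the replicate block. Of the regions chosen by the rule, 1 passed unadjusted, in the genotype test with the 5000 strongest peaks. Motif and gene-distance alternatives were not run, since they need a genome of the build.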

Other observations

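Among D538G libraries, the list labelled E2 clone 3 replicate 2 (43949 regions) shared 28063 regions with DMSO clone 2 replicate 2 (48576 regions), which is 63.9% of the former and 57.8% of the latter. With the DMSO list of its own clone and replicate it shared 1157 regions, 2.63% of its own and 76.3% of that list of 1516. Both long lists held fewer of the 945 regions (739 and 513) than the D538G DMSO clone 2 replicate 1 list (874), which covered 3856 regions. The list labelled DMSO clone 3 replicate 2 shared 71.6 to 97.0% of its regions with single D538G E2 lists, and 64.0 to 91.8% with single other D538G DMSO lists. The main values were not taken without both clone 3 replicate 2 lists. No list was moved to another group on these grounds, and the reason was not tested.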
